A study of Mus musculus with 2 samples.

Results

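The interferon-gamma induced GTPases described here are 10 genes chosen by symbol from the 32285 genes in the files: 5 guanylate-binding proteins (GBPs), Gbp2, Gbp3, Gbp4, Gbp5 and Gbp7, and 5 immunity-related GTPases (IRGs), Irgm1, Igtp, Iigp1, Tgtp1 and Tgtp2. Their transcripts were counted in single cells of subcutaneous RM-1 tumours in C57BL/6 mice, taken at day 10 of vehicle or of RP-6306. RM-1 is a mouse prostate cancer cell line, given as wild type in the labels, and RP-6306 inhibits PKMYT1, the kinase that keeps CDK1 inactive until mitosis. Sorted CD45+ leukocytes had been mixed with tumour cells at 3 to 1 before droplet capture, so the share of tumour cells was set by hand. There was 1 library per group, and the design names a pair of mice without saying which mouse gave which library.

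GBPs are large GTPases of the dynamin superfamily. They coat bacteria and the vacuoles that hold pathogens, and help to start inflammasome signalling and pyroptosis. The IRGs fall into regulators that sit on the cell's own membranes, Irgm1 and Igtp (also called Irgm3), and effectors that load onto pathogen vacuoles, Iigp1 (Irga6) and Tgtp1 and Tgtp2 (Irgb6). Interferon gamma, made mainly by NK and T cells, induces both families, in part through the transcription factor IRF1, and type I interferon induces many of them as well. In tumours the same genes are widely read as a sign that a cell has met interferon.

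The promoter stretches are shown first because they carry letters through which interferon is known to act. The interferon-stimulated response element, which IRF1 can bind, was searched by its core, GAAA, any 2 bases and GAAA again (TTTC, any 2 bases and TTTC on the other strand), and the gamma-activated site, an element of interferon-gamma response, by TTCNNNGAA, which reads alike on both strands. The search covered the 250 bases before each RefSeq gene start (GRCm38.p6), and 8 of the 10 members had such a window. Each stretch runs 5′ to 3′ along the gene's own strand, with matches in capitals and overlapping matches run together. The stretches of Gbp2 and Irgm1 are limited to 30 bases because the match lies in an annotated exon, those of Gbp5 and Tgtp1 lie within the GENCODE span of the gene but outside its exons, and the other 4 lie before the gene.
Gbp2, chr3:142620594-142620623, plus strand: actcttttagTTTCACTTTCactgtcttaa
Gbp3, chr3:142559979-142560025, plus strand: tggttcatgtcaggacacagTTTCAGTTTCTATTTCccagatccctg
Gbp5, chr3:142496684-142496899, plus strand: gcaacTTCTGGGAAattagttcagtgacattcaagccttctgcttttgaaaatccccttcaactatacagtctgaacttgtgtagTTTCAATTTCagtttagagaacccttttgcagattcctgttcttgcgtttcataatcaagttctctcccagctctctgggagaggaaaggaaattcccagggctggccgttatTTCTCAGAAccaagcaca
Gbp7, chr3:142530210-142530312, plus strand: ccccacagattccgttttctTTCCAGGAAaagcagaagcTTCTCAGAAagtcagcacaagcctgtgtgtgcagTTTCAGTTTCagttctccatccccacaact
Irgm1, chr11:48871431-48871460, minus strand: cctgtttcaaGAAATAGAAACCGAAActga
Igtp, chr11:58199491-58199551, plus strand: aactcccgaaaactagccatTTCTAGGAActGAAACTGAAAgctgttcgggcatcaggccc
Tgtp1, chr11:48992294-48992354, minus strand: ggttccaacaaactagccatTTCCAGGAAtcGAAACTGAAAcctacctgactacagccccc
Tgtp2, chr11:49064253-49064313, minus strand: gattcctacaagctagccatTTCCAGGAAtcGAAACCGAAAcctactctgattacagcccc
All 8 genes held the interferon-stimulated core, Gbp3 in one of its windows and not in the other, and 2.98% of the 32851 windows in the table held it. The gamma-activated site was found in 5 of the 8, Gbp5, Gbp7, Igtp, Tgtp1 and Tgtp2, against 7.02% of all windows. Gbp3 and Irgm1 each held a pair of overlapping cores. Igtp, Tgtp1 and Tgtp2 shared one layout: the gamma-activated site began at position -45, -88 and -81 from the start, and the core at -34, -77 and -70. A match is a run of letters and does not show that a factor was bound there.

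On GRCm38 with the GENCODE vM21 annotation, 4 of the GBP genes lie side by side on the plus strand of chromosome 3, in the order Gbp5 (chr3:142493978-142522344), Gbp7 (chr3:142530342-142550149), Gbp3 (chr3:142560026-142573209) and Gbp2 (chr3:142620602-142638008). Gbp4 lies on the minus strand of chromosome 5 (chr5:105115767-105139586), where it overlaps Gbp8 and Gbp9 on the same strand. Chromosome 11 holds Irgm1 (chr11:48861968-48871683), Tgtp1 (chr11:48985327-48994172) and Tgtp2 (chr11:49057194-49064206) on the minus strand, and Igtp (chr11:58199556-58207591) on the plus strand, where it overlaps its relative Irgm2. Tgtp1 and Tgtp2 are near-identical copies: 80.8% of the 50-base stretches in the last 500 bases of Tgtp1 transcripts also occurred in another gene, and 73.7% of those of Tgtp2 occurred in Tgtp1. No source used here says how reads were divided between them, so their separate values are uncertain. For Gbp4 the shared part was 14.2%, and for the other 7 members it was at most 3.55%.

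After filtering, 16153 vehicle cells (127428732 unique molecular identifiers, UMIs) and 14945 RP-6306 cells (147735645 UMIs) were kept, with medians of 3113 and 2849 UMIs per cell. The 2 libraries shared 328 barcodes among the kept cells. Of 42 clusters, 37 could be named from marker genes, and 7 classes besides T cells of no named type held at least 50 cells in each library. They were 3200 and 3495 tumour-like cells in the vehicle and RP-6306 libraries, 461 and 462 macrophage and monocyte-like, 2297 and 2267 CD8 T-like, 1540 and 2742 CD4 T-like, 181 and 126 regulatory T-like, 409 and 143 NK-like, and 3513 and 3463 B-like cells. The tumour marker list summed to 2167 and 2206 CPM in tumour-like cells and to at most 233 CPM in any leukocyte class. CPM here are the UMIs of a gene or list over all cells of a class, scaled to a common total per class. UMIs of a 3′ kit are not scaled by transcript length, so levels are compared between classes for one gene and not between genes. Ratios are log2 of RP-6306 over vehicle, each level with 1 CPM added, and their 95% intervals were computed without that 1 CPM, which pulls the ratios of low genes toward 0. All intervals cover counting error only, and with 1 library per group no difference has a replicate check, and library and treatment cannot be told apart.

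Every member was detected in all 7 classes, and the summed level was highest in regulatory T-like cells. The 10 members together stood at 1262 CPM in vehicle regulatory T-like cells (95% interval 1166 to 1363), 678 CPM in CD8 T-like cells (659 to 697) and 667 CPM in macrophage and monocyte-like cells (638 to 697). CD4 T-like cells followed at 614 CPM (591 to 639), then NK-like cells at 328, B-like cells at 249 and tumour-like cells at 159 CPM. The intervals of CD8 T-like cells and macrophages overlapped, those of macrophages and CD4 T-like cells just touched, and the other neighbours in this order were apart. In the RP-6306 library, regulatory T-like cells were again first at 1193 CPM and tumour-like cells again last at 118 CPM, while macrophages, at 413 CPM, stood below CD4 T-like cells at 510.0 and beside NK-like cells at 436 CPM.

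The GBPs divided by cell class. Gbp2, one of the isoprenylated GBPs, was highest in vehicle macrophages at 271 CPM (253 to 291), ahead of CD8 T-like cells at 101, regulatory T-like cells at 86.1, CD4 T-like cells at 80.4, tumour-like cells at 49.6, B-like cells at 26.6 and NK-like cells at 19.2 CPM. Regulatory T-like cells overlapped both other T-cell classes, B-like overlapped NK-like cells, and the remaining neighbours were apart. Gbp5, known for promoting assembly of the NLRP3 inflammasome, was also highest in vehicle macrophages (83.9 CPM), next to regulatory T-like cells (74.3 CPM), and lowest in tumour-like cells (3.33 CPM). Those 2 leading levels overlapped, and neighbours were apart only between regulatory T-like and B-like cells and between CD4 T-like and tumour-like cells.

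Gbp3, Gbp4 and Gbp7 were each highest in regulatory T-like cells of the vehicle library. Gbp3 stood at 78.3 CPM there, 50.9 in macrophages, 29.2 in NK-like, 17.4 in B-like, 15.5 in CD8 T-like, 9.23 in CD4 T-like and 6.29 CPM in tumour-like cells, an order in which conventional T cells came near the bottom. Its neighbours were apart only between macrophages and NK-like cells and between CD8 and CD4 T-like cells. Gbp4 had the opposite place for T cells, with 172 CPM in regulatory, 130.3 in CD8 and 122 CPM in CD4 T-like cells, against 98.4 in NK-like, 51.2 in macrophages, 48.0 in B-like and 10.2 CPM in tumour-like cells. For Gbp4 the T and NK-like neighbours overlapped, as did macrophages and B-like cells, and the steps from NK-like cells to macrophages and from B-like to tumour-like cells were wider than the intervals. Gbp7 stood at 188 CPM in regulatory T-like cells and within 69.5 to 89.3 CPM in macrophages, NK-like, CD8 and CD4 T-like cells, whose intervals overlapped in turn, above 26.8 in B-like and 13.3 CPM in tumour-like cells.

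Among the IRGs, the regulator Irgm1 was the most even, from 18.4 CPM in NK-like cells and 31.0 in tumour-like cells to 62.6 CPM in regulatory T-like cells, with macrophages, CD8, CD4 and B-like cells at 44.1 to 51.9 CPM and overlapping. The other regulator, Igtp, was uneven: 233 CPM (193 to 279) in regulatory T-like cells, 81.8 in CD4 and 66.4 in CD8 T-like cells, and 10.5 to 23.2 CPM in the other 4 classes. The effector Iigp1 had the steepest order, at 223 CPM (184 to 268) in regulatory T-like cells, 36.2 in CD4 T-like, 24.5 in CD8 T-like, 19.2 in macrophages, 12.5 in tumour-like and 3.54 CPM in B-like cells. In NK-like cells it had 2 UMIs in each library. For Igtp the first 4 classes in order were apart from one another, and for Iigp1 the overlapping neighbours were CD8 T-like cells with macrophages and B-like with NK-like cells. Tgtp1 and Tgtp2, first described as a T-cell GTPase, were highest in T cells. Tgtp2 stood at 114 CPM in CD8, 102 in regulatory and 86.2 CPM in CD4 T-like cells, against 15.9 to 31.1 CPM in the rest, and Tgtp1 followed at 63.9, 43.0 and 57.3 CPM in the same 3 classes against 2.80 to 8.34 CPM. For both genes the 3 T-cell classes stood apart from the rest. Their intervals overlapped for Tgtp1, while for Tgtp2 those of CD8 and CD4 T-like cells were apart and regulatory T-like cells overlapped both. The RP-6306 library kept the leading class for 7 members, while Gbp2 and Gbp5 were highest in regulatory T-like cells (154 and 88.1 CPM) and Irgm1 in CD8 T-like cells (68.1 CPM). For Gbp2 the intervals of RP-6306 regulatory T-like cells (114 to 204 CPM) and macrophages (124 to 146 CPM) overlapped. Without the highest cell of each library, RP-6306 macrophages led for Gbp2 at 123 CPM, against 102 CPM in regulatory T-like cells. The Irgm1 intervals of regulatory and CD8 T-like cells overlapped in each library.

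**Figure D1:**
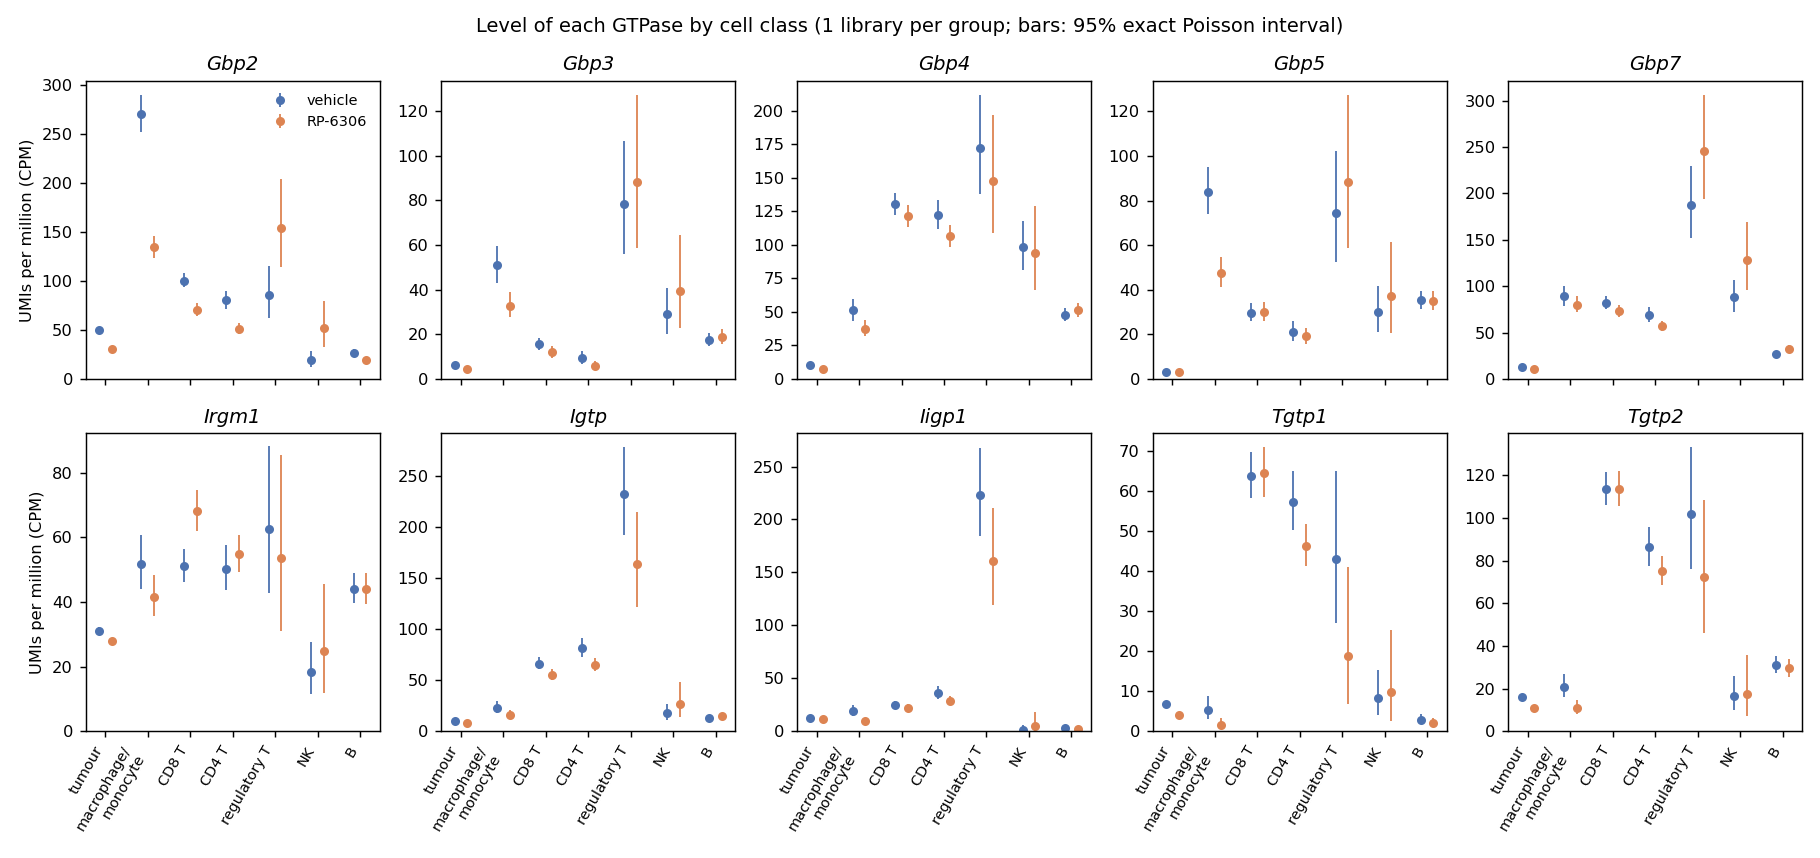
Level of each of the 10 GTPases (CPM, one panel per gene, own linear axis) in the 7 compared classes, vehicle beside RP-6306, with exact 95% Poisson intervals that cover counting error only. Gbp2 and Gbp5 lead in vehicle macrophages, Igtp and Iigp1 in regulatory T-like cells, and Tgtp1 and Tgtp2 in T cells.

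Members varied unevenly with one another over the 14 class and library levels. The Pearson correlation of a member with the mean of the other 9, as log2(CPM + 1), ran from 0.49 for Gbp3 to 0.94 for Igtp. Single pairs ran from -0.07 (Gbp3 with Tgtp1) to 0.87 (Tgtp1 with Tgtp2). The 10 other genes with profiles most like the members' mean, among 13827 genes ranked, were led by Gbp6 (r = 0.97), another GBP, Tent5c (0.93) and Arhgap31 (0.93), followed by Klf6, Fas, Aopep, Dtx3l, Pcgf5, Ass1 and Ikzf4 at 0.89 to 0.92. These 14 points share libraries, depths and cell classes, so the correlations are descriptions.

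Most cells with a member transcript held few. At least 1 member UMI was found in 75.4% of vehicle and 70.1% of RP-6306 tumour-like cells, whose median depths were 26231 and 30741 UMIs. In regulatory T-like cells, at 2712 and 2131 UMIs, the shares were 72.4% and 61.9%. These shares follow depth, and after each cell was thinned to 2000 UMIs they became 19.6% and 16.0% of tumour-like cells (3188 and 3468 cells) but 74.2% and 82.6% of regulatory T-like cells (128 and 69 cells), since shallower cells were left out. At that equal depth the shares were 64.4% and 62.4% in CD8 T-like cells, 56.2% and 51.9% in CD4 T-like cells, 42.2% and 40.8% in macrophages, 43.5% and 53.3% in NK-like cells, and 33.1% and 35.4% in B-like cells. Unthinned, the same shares were 76.0% and 70.4%, 61.7% and 55.8%, 63.3% and 66.7%, 53.1% and 59.4%, and 34.7% and 33.1%. Thinning left out 12 and 27 tumour-like cells, and 1354 and 1896 B-like cells.

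No class is known to lack all of these GTPases, so free RNA was judged from other genes. RNA of tumour cells was estimated from tumour keratin genes and Lgals7. It made up 3.50% to 9.42% of the UMIs of the 6 leukocyte classes in the vehicle library and 1.96% to 4.90% in the RP-6306 library. At tumour-cell levels it would account for 0.836% to 6.05% of the leukocytes' summed member level in the vehicle library and 0.474% to 2.33% in the RP-6306 library. These parts are for the sum. They would be larger for a member with a lower level in the leukocyte class than in tumour-like cells. Vehicle Gbp2 was such a case, at 49.6 CPM in tumour-like, 26.6 in B-like and 19.2 CPM in NK-like cells. Free T-cell RNA would account for 2.46% and 2.51% of the tumour-like level.

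In tumour-like and macrophage cells the members were concentrated in few cells. The tenth of tumour-like cells with the most member UMIs held 62.0% of them in the vehicle and 64.6% in the RP-6306 library, with medians of 2 and 1 per cell and highest cells of 215 and 350 UMIs. Macrophages were similar at 61.6% and 57.9%, and B-like cells were next at 52.8% and 53.5%. The same share of cells held 40.9% and 49.6% in regulatory T-like and 42.7% and 43.7% in CD4 T-like cells. It held 33.5% and 36.9% in CD8 T-like cells and 43.5% and 36.4% in NK-like cells. These shares were not thinned and also depend on the member UMIs per cell. Members also occurred together in the same cell. At 2000 UMIs, tumour-like cells with a Gbp2 UMI (389 cells of both libraries) held Iigp1 in 16.7% of cases, against 1.28% of those without Gbp2. Macrophages with Gbp2 (145 cells) held Gbp5 in 35.2% of cases against 4.95%. In CD8 T-like cells the contrast was smaller, as for Tgtp2 in 26.4% of cells with Tgtp1 against 18.1%.

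For every ordered pair with at least 20 positive cells, a partner was more frequent beside a detected member in 90 of 90 pairs in tumour-like cells, 72 of 72 in macrophages, 90 of 90 in CD8 T-like, 88 of 90 in CD4 T-like, 69 of 72 in regulatory T-like, 72 of 81 in B-like and 22 of 45 in NK-like cells. The median partner share was 14.8% against 1.86% in tumour-like cells and 16.7% against 6.43% in macrophages. In NK-like cells it was 3.85% against 4.46%, so no higher share was seen there. The members counted in NK-like cells had from 23 (Gbp5) to 70 (Gbp4) positive cells, too few to show that members do not occur together. Members that both reached 20 positive cells were counted in both orders, which always agree in direction, so the counts hold fewer distinct pairs. Pairs share cells and libraries, and these counts carry no test.

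**Figure D2:**
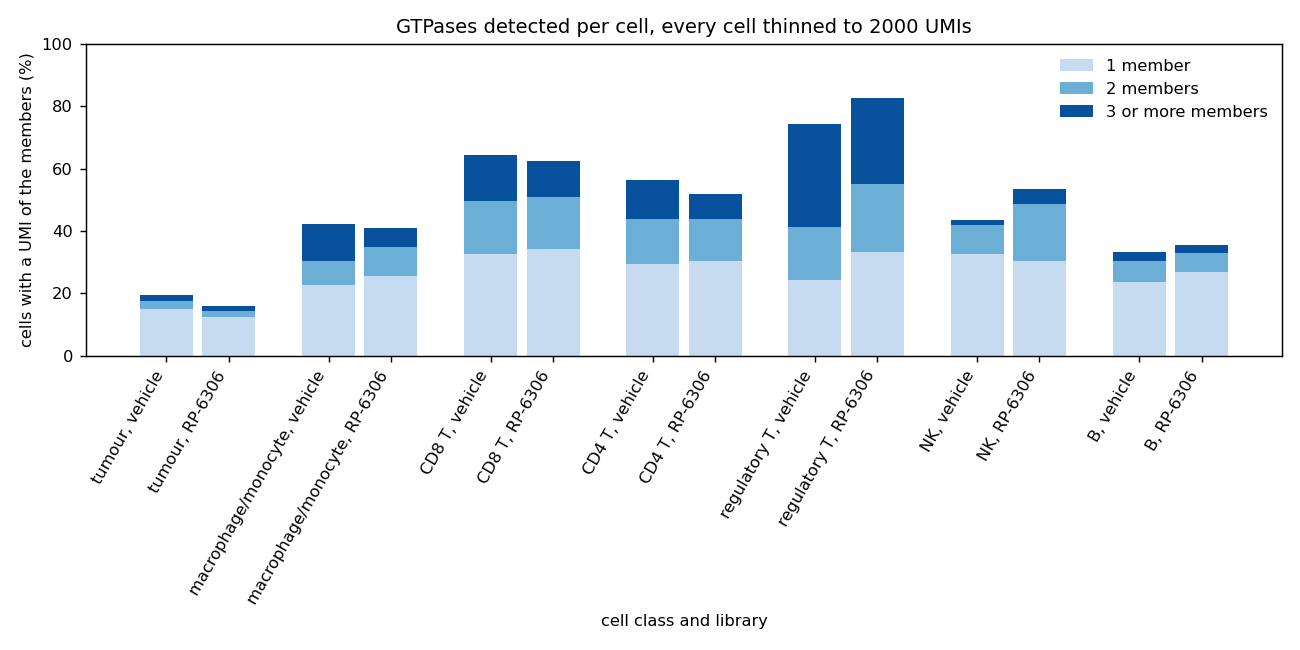
Share of cells (%) with 1, 2 or at least 3 of the 10 GTPases detected, each cell thinned to 2000 UMIs, by class and library. At least 3 members were found in 32.8% and 27.5% of regulatory T-like cells in the vehicle and RP-6306 libraries, and in 2.07% and 1.56% of tumour-like cells.

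In tumour-like cells, all 10 members were lower in the RP-6306 library. Gbp2 stood at 49.6 CPM in the vehicle library and 30.3 CPM in the RP-6306 library, a log2 ratio of -0.69 (95% interval -0.78 to -0.65), and Tgtp1 at 6.91 CPM in the vehicle library and 3.99 CPM in the RP-6306 library (-0.67, interval -0.97 to -0.62). These 2 members were past 1.5-fold, against 1.56% of all 17501 genes tested in that direction (at least 20 UMIs). The share was 1.94% of the 13952 genes with at least 100 UMIs. The summed level was 159 CPM in the vehicle library and 118 CPM in the RP-6306 library, a log2 ratio of -0.43 (95% interval -0.47 to -0.40), and the ratio was -0.29 at 2000 UMIs per cell and -0.71 with cells classed by their own marker scores. The median ratio of the members was -0.38 beside 0.02 for all genes tested, of which 46.6% were lower.

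The other GBPs in tumour-like cells had ratios of -0.45 for Gbp3, -0.43 for Gbp4, -0.11 for Gbp5 (3.33 and 3.03 CPM, interval -0.37 to 0.09) and -0.27 for Gbp7. The GBPs as a group had a ratio of -0.56 (95% interval -0.62 to -0.52), and the IRGs one of -0.30 (95% interval -0.35 to -0.25). Of the IRGs, the regulators Irgm1 (31.0 and 27.9 CPM, -0.15) and Igtp (10.5 and 8.16 CPM, -0.33) and the effector Iigp1 (12.5 and 11.4 CPM, -0.13) differed less than Tgtp2 (15.9 and 11.0 CPM, -0.49). Gbp5's interval included 0 and those of the other 9 did not. Gbp2 was found in 40.0% and 31.1% of tumour-like cells, or 7.03% (6.16 to 7.97%) and 4.76% (4.07 to 5.52%) at 2000 UMIs. Irgm1 and Iigp1 turned to 0.03 and 0.12 when each cell was thinned to 2000 UMIs.

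The ratio varied between the tumour clusters. The summed level was 171 and 122 CPM (log2 -0.48, 95% interval -0.54 to -0.44) in cluster 12, led by Cryab and Mmp10, and 129 and 83.0 CPM (-0.64, 95% interval -0.74 to -0.55) in cluster 15, led by the mitotic genes Ube2c, Cdc20 and Plk1. Cluster 20, led by histone genes, stood at 136 and 122 CPM (-0.15, 95% interval -0.23 to -0.08). In cluster 17, led by Trim69 and Mir100hg, the levels were 193 and 198 CPM (0.04, 95% interval -0.07 to 0.14), and a single RP-6306 cell held 296 of its 1570 member UMIs. Without the highest cell of each library the ratio of cluster 17 was -0.16. Clusters 15 and 20 held 418 and 795 cells and 529 and 797 cells, more in the RP-6306 library, and with the clusters weighted alike the tumour-like ratio was -0.37. The NK marker list moved with these values in tumour-like cells, at 129 and 83.6 CPM, with 9 and 7 of its 9 genes detected, and its part in the result was not tested. The T-cell list stood at 19.3 and 19.2 CPM.

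**Figure D3:**
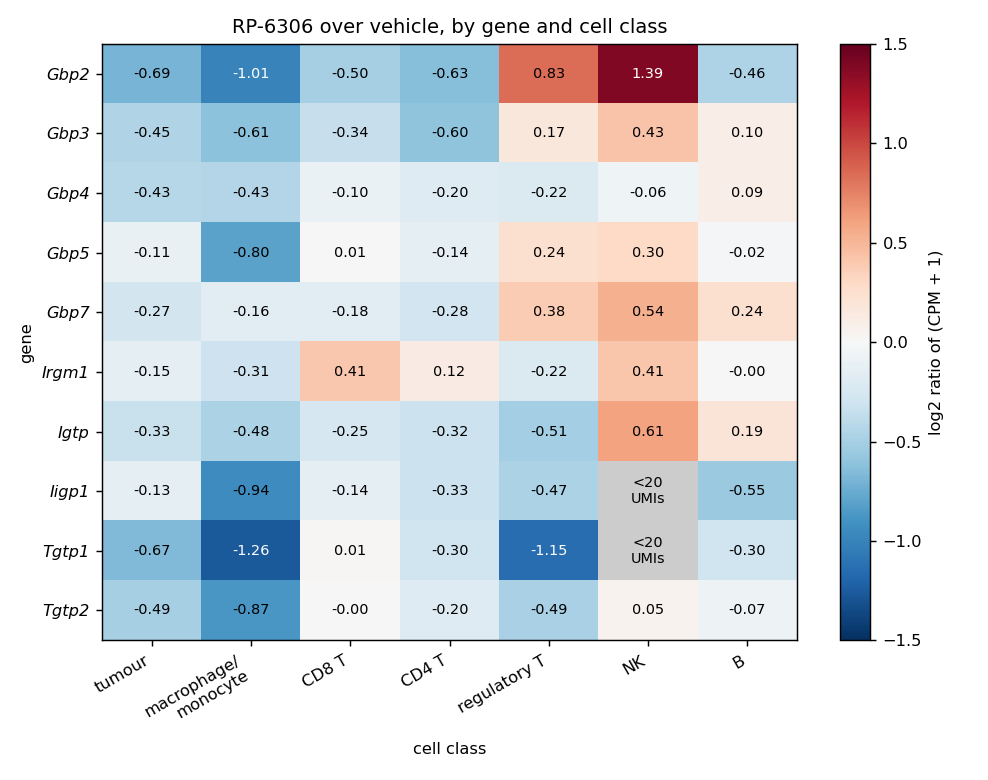
Log2 ratio of each GTPase's level, RP-6306 over vehicle, by class, with blue for lower and red for higher in the RP-6306 library and grey where both libraries together held fewer than 20 UMIs. The tumour-like and macrophage columns are blue for all 10 genes, and the NK-like column is red for 7 of 8.

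Macrophage and monocyte-like cells had the lowest member median of the 7 classes. Gbp2 stood at 271 CPM in the vehicle library and 135 CPM in the RP-6306 library, a log2 ratio of -1.01 (95% interval -1.17 to -0.85). Gbp5 was at 83.9 and 47.7 CPM (-0.80, interval -1.09 to -0.54), and Gbp3 at 50.9 and 32.9 CPM (-0.61, -0.97 to -0.29). All 10 members were lower in the RP-6306 library and 6 were past 1.5-fold, against 5.54% of 10271 genes tested in that direction and 11.5% in the other. The member median was -0.71 beside 0.10 for all genes, of which 38.2% were lower. The summed level was 667 CPM in the vehicle library and 413 CPM in the RP-6306 library (-0.69, 95% interval -0.79 to -0.60).

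The effector IRGs were low and uncertain in macrophages. Iigp1 was at 19.2 and 9.53 CPM (57 and 40 UMIs, ratio -0.94), Tgtp1 rested on 16 and 7 UMIs (-1.26) and Tgtp2 was at 20.9 and 11.0 CPM (-0.87). The regulators Irgm1 (51.9 and 41.7 CPM, -0.31) and Igtp (23.2 and 16.4 CPM, -0.48), with Gbp4 (-0.43) and Gbp7 (89.3 and 80.1 CPM, -0.16), stayed within 1.5-fold. The share of macrophages with Gbp2 was 30.8% and 27.9%, or 17.7% (14.2 to 21.6%) and 15.6% (12.3 to 19.3%) at 2000 UMIs, which overlap. At 2000 UMIs the ratios of Tgtp2 and Gbp4 turned to 0.083 and 0.27. That of Irgm1 turned to 0.17 with clusters weighted alike in both libraries.

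Much of the macrophage signal lay in a few small clusters. M10, led by Cxcl9 and Slfn4, themselves interferon-induced genes, held 50 and 32 cells but 779 of the 1980 vehicle and 520 of the 1734 RP-6306 member UMIs. Its summed level was 2168 and 1949 CPM (-0.15, 95% interval -0.32 to 0.01), and its Gbp2 was at 979 and 956 CPM. Other clusters had lower levels in the RP-6306 library. M12, led by Mmp12 and C1q genes, stood at 809 and 271 CPM (-1.57, 95% interval -1.88 to -1.28) over 34 and 39 cells, and M2, led by Pid1 and Plxdc2, at 862 and 334 CPM (-1.37, 95% interval -1.78 to -0.97) over 32 and 30 cells. In M12, Gbp2 had 149 UMIs in vehicle and 10 in RP-6306 cells, and was found in 38.2% and 15.4% of cells.

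Another 3 clusters were higher in the RP-6306 library. M6, led by Adgre4 and Ace, which mark nonclassical monocytes, stood at 418 and 642 CPM (0.62, 95% interval 0.31 to 0.93), M9, led by Chil3 and Hp, at 460.1 and 616 CPM (0.42, 95% interval 0.12 to 0.72), and M3, led by Gda and Il1b, at 219 and 338 CPM (0.62, 95% interval 0.14 to 1.11). M14, led by Mrc1 and C1q genes, was at 375 and 274 CPM (-0.45, 95% interval -0.78 to -0.12). The clusters with the most macrophages were M6, M9 and M3 in the vehicle library and M13, M14 and M6 in the RP-6306 library. With clusters weighted alike in both libraries the class ratio was -0.27 in place of -0.69, and at 2000 UMIs per cell it was -0.46. The macrophage marker list was at 9889.7 and 14319 CPM, the T-cell list at 19.2 and 16.9 CPM and the NK list at 7.41 and 2.86 CPM in this class, and their part in the result was not tested.

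**Figure D4:**
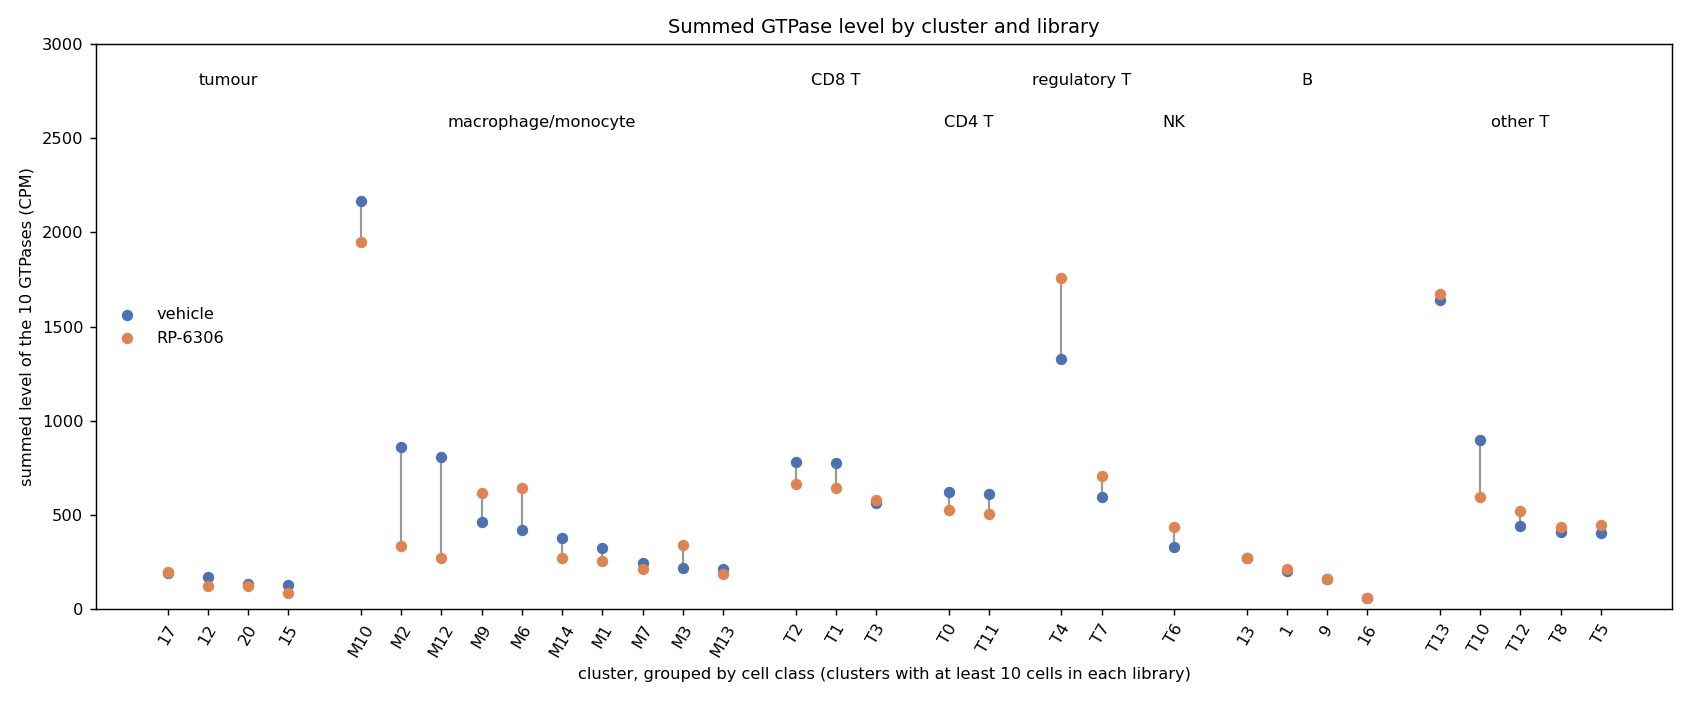
Summed level of the 10 GTPases (CPM) in each cluster with at least 10 cells in each library, vehicle beside RP-6306, with clusters grouped by class. M10 stands at 2168 and 1949 CPM and M12 at 809 and 271 CPM.

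CD8 T-like cells differed little. The summed level was 678 CPM in the vehicle library and 631 CPM in the RP-6306 library (-0.10, 95% interval -0.16 to -0.04), with no member past 1.5-fold (6.04% of 11492 genes were lower and 2.75% higher by that much) and a member median of -0.12 beside 0.03 for all genes. Gbp2 was the member with the lowest ratio, at 101 and 70.7 CPM (-0.50, 95% interval -0.68 to -0.34), and Irgm1 the one with the highest, at 51.1 and 68.1 CPM (0.41, 95% interval 0.22 to 0.62). Gbp4 (-0.10), Gbp5 (0.01), Gbp7 (-0.18), Igtp (-0.25), Iigp1 (-0.14), Tgtp1 (0.01) and Tgtp2 (0.00) lay between them, as did Gbp3 at -0.34. Gbp2 was found in 24.3% and 15.4% of cells, or 16.8% (15.3 to 18.5%) and 11.8% (10.4 to 13.3%) at 2000 UMIs. With cells classed by their own marker scores the summed ratio was -0.015. By cluster, T1 and T2, led by Cd8b1 and with Lef1 among their leading genes, had summed levels of 774 and 644 CPM and of 782 and 664 CPM. T3, led by Ly6c2, a gene of memory and activated CD8 T cells, stood at 565 and 582 CPM (0.04, 95% interval -0.06 to 0.15).

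CD4 T-like cells had a summed level of 614 CPM in the vehicle library and 510.0 CPM in the RP-6306 library (-0.27, 95% interval -0.34 to -0.19), with 9 of 10 members lower. Gbp2, at 80.4 and 51.4 CPM (-0.63, 95% interval -0.87 to -0.42), and Gbp3, at 9.23 and 5.73 CPM (-0.60, 95% interval -1.38 to 0.01), were past 1.5-fold, against 6.74% of 10957 genes lower and 4.39% higher by that much. Irgm1, at 50.3 and 54.9 CPM (0.12), was the one member higher, and its interval (-0.13 to 0.38) included 0. Igtp (81.8 and 65.4 CPM, -0.32), Iigp1 (36.2 and 28.7 CPM, -0.33) and Gbp4 (122 and 106 CPM, -0.20) were lower by less than 1.5-fold. The member median was -0.29 beside 0.03 for all genes, of which 45.5% were lower. Gbp2-positive cells made up 15.6% and 9.04%, or 13.3% (11.5 to 15.3%) and 7.69% (6.54 to 8.97%) at 2000 UMIs. Both CD4 clusters were lower, T0 at 621 and 528 CPM and T11 at 610.3 and 506 CPM. When cells were classed by their own marker scores, the summed ratio was -0.082. The ratios of Gbp4, Iigp1, Tgtp1 and Tgtp2 then turned to 0.11, 0.01, 0.06 and 0.03.

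A small T-cell cluster outside these classes, T13, carried a high level in both libraries. Its leading genes were Slfn5, Ifit1, Ifit3 and Gbp6, which interferon induces, and its 104 and 161 cells had a summed level of 1639 and 1671 CPM (0.03, 95% interval -0.14 to 0.19). Within it Gbp2 was at 282 and 161 CPM (-0.80, 95% interval -1.28 to -0.34). The members and the listed interferon genes had been left out of the genes used for clustering, but unlisted ones such as Slfn5 had not.

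Regulatory T-like cells had a summed level of 1262 CPM in the vehicle library and 1193 CPM in the RP-6306 library (-0.08, 95% interval -0.27 to 0.10), with the 2 families on opposite sides of 0. The GBPs summed to 599 CPM in the vehicle library and 724 CPM in the RP-6306 library, a ratio of 0.27 (95% interval 0.02 to 0.53), and the IRGs to 663 CPM in the vehicle library and 469 CPM in the RP-6306 library, a ratio of -0.50 (95% interval -0.79 to -0.22). Gbp2 was higher at 86.1 and 154 CPM (0.83, 95% interval 0.22 to 1.46), and Gbp7 at 188 and 246 CPM (0.38). Igtp was lower at 233 and 164 CPM (-0.51, 95% interval -1.01 to -0.03), as was Iigp1 at 223 and 161 CPM (-0.47). Tgtp1 rested on 22 and 6 UMIs (-1.15, 95% interval -2.78 to 0.16). Gbp2 and Tgtp1 were past 1.5-fold, against 13.3% of 5744 genes higher and 13.6% lower, a background at which 1 member in each direction is no result. One RP-6306 cell held 17 of the 49 Gbp2 UMIs, and without the highest cell of each library Gbp2 stood at 71.1 and 102 CPM (0.51). One RP-6306 cell also held 17 of the 51 Iigp1 UMIs, and without the highest cells its ratio was -0.86.

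The class was also a different mix in the 2 libraries. Cluster T4, led by Gzmb and Klrg1 beside Il2ra and Ctla4, genes of effector regulatory T cells, held 157 and 40 cells and stood at 1327 and 1757 CPM (0.40, 95% interval 0.19 to 0.62). Cluster T7, led by Il2ra and Izumo1r, held 24 and 86 cells and stood at 594 and 705 CPM (0.25, 95% interval -0.37 to 0.91). The level of each cluster was above its vehicle value in the RP-6306 library while that of the class was not. T4, the cluster with the higher level, made up most of the vehicle class and the smaller part of the RP-6306 class. With both weighted alike the class ratio was 0.38, and the ratios of Igtp and Iigp1 turned to 0.17 and 0.29, so the lower IRG level did not hold for these 2 genes. Iigp1 was also at 0.051 with cells classed by their own marker scores.

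NK-like cells differed in the other direction, at a summed level of 328 CPM in the vehicle library and 436 CPM in the RP-6306 library (0.41, 95% interval 0.15 to 0.67). Of the 8 members with at least 20 UMIs, 7 were higher, and 2, Gbp2 and Igtp, were past 1.5-fold, against 9.78% of 7373 genes higher and 8.98% lower. Gbp2 was at 19.2 and 52.0 CPM (1.39, 95% interval 0.51 to 2.36), from 23 and 21 UMIs in 22 and 19 cells, and Igtp at 17.5 and 27.2 CPM (0.61, 95% interval -0.56 to 1.75). Gbp7, at 88.4 and 129 CPM (0.54, 95% interval 0.03 to 1.03), and Gbp4, at 98.4 and 94.1 CPM (-0.06), had the most UMIs. Tgtp2, 1 of the 7 that were higher, was at 0.05 and turned negative at 2000 UMIs and with cells classed by their own marker scores. The member median was 0.42 beside 0.06 for all genes, of which 43.9% were lower. With cells classed by their own marker scores the summed ratio was 0.12 and that of Gbp2 was -0.19, so the size of the summed ratio and the direction of Gbp2 depended on how the cells were chosen. The T-cell marker list moved with the result, at 544 and 740.2 CPM in NK-like cells, with 10 of 10 genes detected in each library, and its part was not tested.

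The sum did not differ beyond counting error in B-like cells, at 249 CPM in the vehicle library and 248 CPM in the RP-6306 library (0.00, 95% interval -0.09 to 0.09). Gbp2, at 26.6 and 19.1 CPM (-0.46, 95% interval -0.80 to -0.16), was lower by less than 1.5-fold, and Gbp7, at 26.8 and 31.9 CPM (0.24), was higher. No member was past 1.5-fold in either direction, while 7.86% of 11917 genes were lower and 2.25% higher by that much. The median was -0.01 beside 0.00 for all genes. With cells classed by their own marker scores the summed ratio was -0.17.

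Other GBP and IRG genes, from a list that holds 15 of them, went with the members in tumour-like cells, where 14 of 14 tested were lower, with a median of -0.40. Gbp8, another GBP, stood at 4.71 and 2.60 CPM, log2 ratio -0.67. In macrophages 11 of 12 were lower, with a median of -0.41, and Irgm2, another regulatory IRG, was at 20.6 and 10.2 CPM, log2 ratio -0.94. In CD8 T-like cells 6 of 11 were lower (median -0.10) and in CD4 T-like cells 9 of 11 (median -0.13). Irgm2 was among those higher, at 48.4 and 61.4 CPM, log2 ratio 0.34 in CD8 and 55.1 and 76.2 CPM, log2 ratio 0.46 in CD4 T-like cells, and was at 102 and 75.5 CPM, log2 ratio -0.42 in regulatory T-like cells.

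The list of interferon-gamma source and signal genes, the signal list below, did not share this pattern as a whole in tumour-like cells. Besides receptor, kinase and transcription factor genes, it holds Ifng, feedback genes and genes that drive Ifng production. Of its 21 genes tested, 11 were lower and 10 higher, with a median of 0.00, and this split is for the whole mixed list. The receptor chains Ifngr1 (66.9 and 61.4 CPM, log2 ratio -0.12) and Ifngr2 (48.6 and 48.6 CPM, log2 ratio 0.00) and the kinases Jak1 (-0.09) and Jak2 (-0.10) were near 0, while the transcription factors Irf1 (188 and 161 CPM, log2 ratio -0.22), Stat2 (14.6 and 9.69 CPM, log2 ratio -0.54) and Irf9 (18.2 and 12.7 CPM, log2 ratio -0.48) were lower. These 3 are themselves induced by interferon. The feedback inhibitor Socs1 had a ratio of 0.09.

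Interferon-gamma induced genes other than the GTPases, such as antigen-processing genes and chemokines, were lower for 22 of 25 in tumour-like cells (median -0.30). Psmb9, an immunoproteasome subunit, was at 91.3 and 63.8 CPM, log2 ratio -0.51, and Nos2, the inducible nitric oxide synthase, at 3.39 and 1.06 CPM, log2 ratio -1.09. The type I interferon-stimulated list gave 26 of 26 lower (median -0.42), so that the GTPases, at -0.38, stood beside it. Rsad2, which encodes the antiviral protein viperin, was at 17.7 and 10.1 CPM, log2 ratio -0.74.

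In macrophages, receptor, kinase and transcription factor genes were mostly lower as well. Ifngr1 was at 440.0 and 368 CPM, log2 ratio -0.26, Jak2 at 217 and 145 CPM, log2 ratio -0.58 and Irf1 at 204 and 144 CPM, log2 ratio -0.49, while Ifngr2 was at 144 and 176 CPM, log2 ratio 0.29. The signal list had 12 of 18 genes lower (median -0.23), the induced list 21 of 23 (-0.21) and the type I list 24 of 24 (-0.85), 16 of them past 1.5-fold, against 5.54% of all genes in this class that were lower by that much and 38.2% that were lower at all. Cxcl9, a chemokine that interferon gamma induces, was at 201 and 80.1 CPM, log2 ratio -1.32, and Rsad2 at 83.6 and 16.9 CPM, log2 ratio -2.24.

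Genes whose proteins act with the GTPases pointed both ways. The list holds the LC3-conjugation genes that place GTPases on vacuoles and the inflammasome and caspase genes downstream of GBPs. In tumour-like cells 9 of 17 were lower and 8 higher (median -0.01), with Casp4, the sensor of intracellular lipopolysaccharide, at 59.1 and 35.0 CPM, log2 ratio -0.74, Gabarapl1, of the LC3 family, at 58.0 and 41.9 CPM, log2 ratio -0.46, and Nlrp3, an inflammasome sensor, at 17.5 and 28.6 CPM, log2 ratio 0.67. In macrophages it was 9 lower and 8 higher (median -0.04), with Nlrp3 at 329.8 and 435 CPM, log2 ratio 0.40, opposite to Gbp5.

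**Figure D5:**
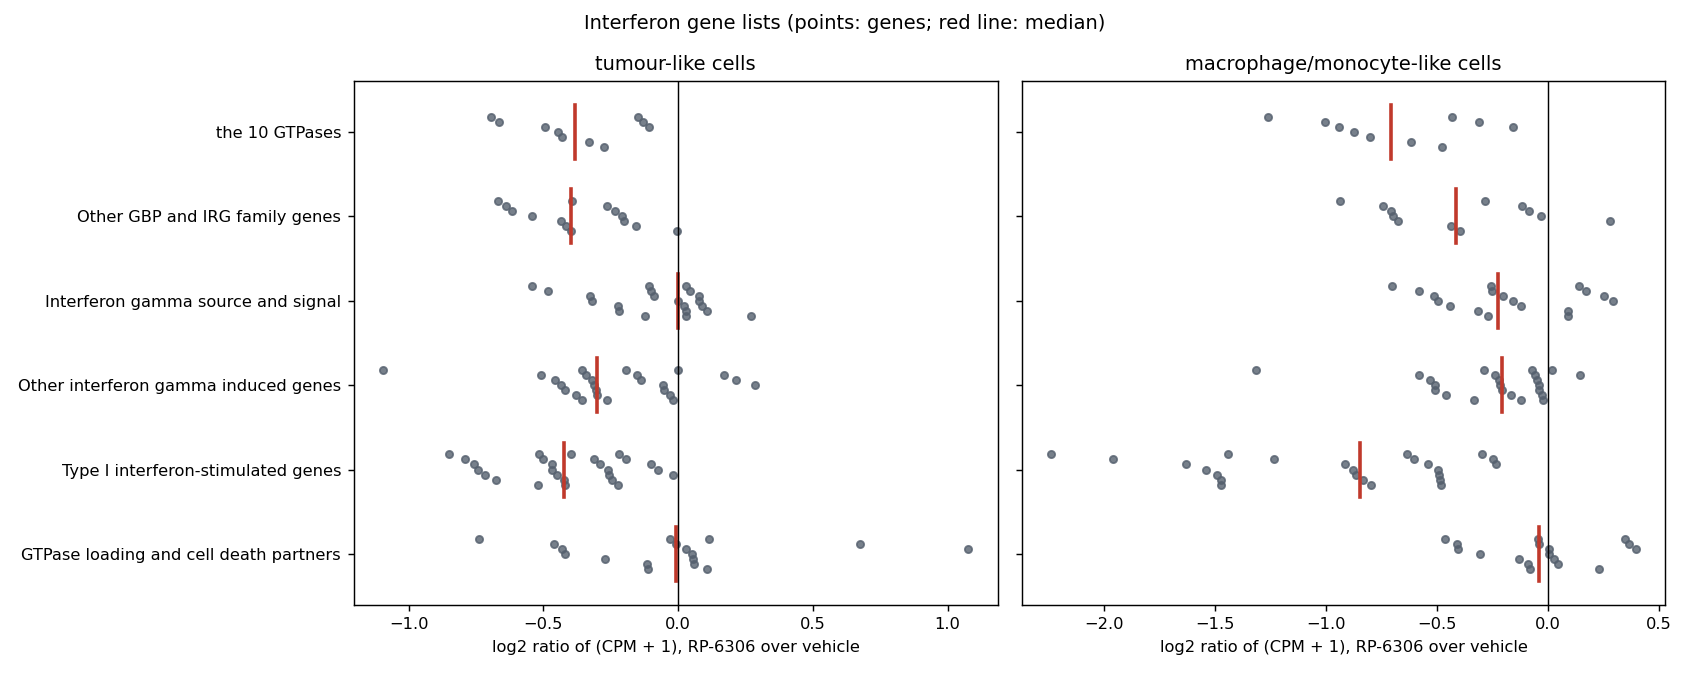
Log2 ratios (RP-6306 over vehicle) of the genes in the 6 lists, one point per gene, in tumour-like and in macrophage and monocyte-like cells, with the list median in red. The member medians of -0.38 and -0.71 lie beside the type I interferon-stimulated medians of -0.42 and -0.85, while the loading and cell death partners lie at -0.01 and -0.04.

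CD8 and CD4 T-like cells had more receptor transcript in the RP-6306 library, while their summed GTPase levels were lower. In CD8 T-like cells Ifngr1 was at 576 and 699 CPM, log2 ratio 0.28, Ifngr2 at 162 and 310.1 CPM, log2 ratio 0.93 and Socs1 at 37.1 and 66.3 CPM, log2 ratio 0.82, with Irf1 at 0.22. Of the 21 genes of the signal list tested in CD8 T-like cells, 11 were lower and 10 higher (median -0.01). In CD4 T-like cells Ifngr1 was at 313 and 461 CPM, log2 ratio 0.56, Ifngr2 at 317 and 512 CPM, log2 ratio 0.69 and Socs1 at 44.0 and 97.9 CPM, log2 ratio 1.14, and 14 of 18 genes of the signal list were higher (median 0.23). In regulatory T-like cells Ifngr1 was lower, at 2159.8 and 1549 CPM, log2 ratio -0.48, and Ifngr2 higher, at 56.7 and 179 CPM, log2 ratio 1.64. Of the type I list, 8 of 25 genes were lower in CD8 (median 0.04) and 17 of 26 in CD4 T-like cells (median -0.14). In regulatory T-like cells 11 of 13 type I genes were higher (median 0.51), in NK-like cells 8 of 15 (0.14) and in B-like cells 16 of 26 (0.08). Of all genes tested, 44.6% were lower in CD8, 45.5% in CD4 and 48.4% in regulatory T-like cells. In NK-like and B-like cells 43.9% and 49.8% were lower, so the NK-like count was near the share of all genes. The regulatory T-like class was a different mix of clusters in the 2 libraries, and the part of that mix in its count was not tested.

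Ifng itself, the gene of the inducer, was highest in NK-like cells among the classes. It stood at 100.9 CPM (interval 83.8 to 120.6) in vehicle and 119 CPM (87.6 to 158) in RP-6306 NK-like cells, and was found in 20.5% and 17.5% of them, or 16.5% and 12.4% at 2000 UMIs. In B-like cells, which should lack it, the share was 0.0285% and 0, at median depths of 2166 and 1934 UMIs. Among RP-6306 NK-like cells 1 cell held 33.3% of the Ifng UMIs. NK-like cells gave 41.7% of the vehicle and 41.0% of the RP-6306 library's Ifng UMIs, although they numbered 409 and 143. T cells outside the named classes were at 35.5 and 23.5 CPM, and CD8 T-like cells at 1.98 and 0.749 CPM. Regulatory T-like cells were at 13.7 and 9.44 CPM, from 7 and 3 UMIs. No Ifng UMI was found in macrophages or CD4 T-like cells, which allows at most 1.24 and 0.879 CPM in macrophages and 0.896 and 0.572 CPM in CD4 T-like cells (the upper end of an exact 95% Poisson interval). The Ifng levels of NK-like cells overlapped between the libraries. NK-like cells were fewer in the RP-6306 library, where the share of each leukocyte type also depends on the sort.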

How the data were processed

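The deposited matrices give raw counts, as whole UMIs for each gene in each barcode, with no normalization by the authors. The submitters' processing notes name Cell Ranger 2.1.1 and mm10 without saying what each did, and no source used here says how barcodes were called as cells. There were 17313 vehicle barcodes with 135415063 UMIs and 15909 RP-6306 barcodes with 158073632 UMIs, and 374 barcodes occurred in both.

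Cells needed at least 500 UMIs, 300 genes and at most 15% mitochondrial UMIs. Scrublet's own threshold called 0 doublets in each library, so the 6% with the highest scores were removed (955 and 923 cells). Both libraries were clustered jointly, with no batch correction (scanpy 1.11.5, 2000 variable genes, 30 components, 15 neighbours, Leiden resolution 1), leaving out the members and the listed interferon genes, and T and myeloid clusters were split again. Clusters were named from marker lists, with score thresholds set after the clusters were seen, and 22.5% of vehicle and 10.7% of RP-6306 cells stayed unnamed. Shares were also computed with each cell thinned to 2000 UMIs. With 1 library per group there was no test. Levels have exact Poisson intervals, shares exact Clopper-Pearson intervals and ratios exact conditional binomial intervals, all at 95%, and the ratio code was tested on simulated data. All 10 members are named in each compared class. From each gene list, up to 4 genes with the largest ratios and at least 50 UMIs could be named, besides Ifng, its receptor genes, Jak1, Jak2, Irf1 and Socs1. A gene of the signal list is not reported here. The members and lists were chosen with earlier results of these data known. Other tools were leidenalg 0.10.2, igraph 0.11.9, scikit-learn 1.9.0, matplotlib 3.10.9, pandas 2.3.3, numpy 2.4.6 and scipy 1.17.1, run in Python 3.11.15.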

Additional observations from a re-analysis of the deposited data

Results flagged for a closer look

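Gbp2 was lower in the RP-6306 library in tumour-like cells (log2 ratio -0.69), macrophage and monocyte-like cells (-1.01) and CD4 T-like cells (-0.63), and higher in regulatory T-like cells (0.83) and NK-like cells (1.39). These opposite directions past 1.5-fold brought it to attention, and the difference between the classes was not tested, since each rests on 1 library per group. The regulatory T-like value rests on 44 and 49 UMIs and the NK-like value on 23 and 21 UMIs.

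The clusters left without a name, which enter no comparison, also held these GTPases, at a summed level of 332 CPM in the vehicle library and 346 CPM in the RP-6306 library. Between 5.44% and 19.9% of a member's UMIs in a library lay in those cells.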

How the results depend on the processing

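No paired analysis was possible because each group has 1 library. Of 68 member and class ratios, 45 kept their sign under every alternative run. Of the 14 past 1.5-fold, 12 kept their sign and 1, Tgtp1 in regulatory T-like cells, was past it under every alternative. The summed ratio moved when each cell was thinned to 2000 UMIs, to -0.29 in tumour-like cells and -0.46 in macrophages, and with a median-of-ratios size factor to -0.79 in macrophages. With cells assigned by their own marker scores it was -0.71 in tumour-like, -0.015 in CD8 T-like, -0.082 in CD4 T-like, 0.12 in NK-like and -0.17 in B-like cells. With clusters weighted alike, an alternative added after seeing the data, it was -0.37 in tumour-like cells, -0.27 in macrophages and 0.38 in regulatory T-like cells. The causes were not tested. Leaving out shared barcodes, also added later, moved no summed ratio beyond its interval, nor did a pseudocount of 10 CPM, a minimum of 1000 UMIs per cell, keeping doublets, subtracting free tumour RNA or leaving out the highest cells.

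Among the ratios past 1.5-fold, Tgtp2 in macrophages reversed to 0.083 at 2000 UMIs, and Gbp2 in NK-like cells to -0.19 with marker scores. The size factor shifted all genes by -0.10 in regulatory T-like and -0.11 in NK-like cells. At clustering resolution 0.5 the regulatory T-like class gave no value, and weighting could not apply to NK-like cells, which are 1 cluster. With at least 100 UMIs per gene in place of 20, the share of genes lower by 1.5-fold was 1.94% in place of 1.56% in tumour-like cells. It was 2.71% in place of 5.54% in macrophages, 2.18% in place of 6.04% in CD8 T-like and 2.66% in place of 6.74% in CD4 T-like cells. In regulatory T-like cells it was 8.25% in place of 13.6%, in NK-like 2.35% in place of 8.98% and in B-like cells 3.97% in place of 7.86%. The share higher was 1.6% in place of 2.75% in CD8 T-like, 2.71% in place of 4.39% in CD4 T-like and 3.1% in place of 9.78% in NK-like cells. Depth limits the regulatory T-like and NK-like values most, with 379 and 176 member UMIs in the RP-6306 library.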

Other observations

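Classes with fewer than 50 cells in a library were not compared, but held these GTPases as well. Neutrophil-like cells (48 and 40) had a summed level of 434 CPM in the vehicle and 1175 CPM in the RP-6306 library, from 35 and 77 UMIs, and 1 RP-6306 cell held 33 of them. Dendritic-like cells (49 and 56) stood at 322 and 286 CPM, and gamma delta T-like cells (52 and 19) at 730.3 and 955 CPM. T-cell cluster T10, led by Myb and Hdac9 with Eomes, a T-box factor of cytotoxic and memory T cells, stood at 899.5 and 597 CPM over 47 and 34 cells.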
